A study of Mus musculus with 90 samples.

Results

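The 8 genes described here mark the parts of the nephron, the filtering and reabsorbing unit of the kidney, and were followed through 15 mouse tissues. They were found by their Entrez Gene identifiers, and all 8 of 8 were listed among the 20414 genes of the table: Nphs1 (54631), Slc34a1 (20505), Lrp2 (14725), Kap (16483), Umod (22242), Slc12a1 (20495), Slc12a3 (20497) and Ren1 (19701). They were chosen by name for what they are known to do in the kidney, so a high level there restates the choice.

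The 90 libraries came from female mice, C57BL/6 in the sample labels and C57BL/6J in the study's methods, 10 weeks old by the labels although the study's methods give a younger age, with 3 libraries in estrus and 3 in diestrus for each tissue. The tissues were aorta, brown adipose tissue, cerebrum, duodenum, heart, hypothalamus, kidney, liver, muscle, ovary, spleen, stomach, vein, white adipose tissue and uterus, which the labels call Womb. No mouse was treated or genetically altered, and the phase of the estrous cycle was read from stained vaginal smears. The study also measured serum estrogen and progesterone as an aid to assigning phases. Values are FPKM, the RNA fragments of a gene per kilobase of transcript scaled to all mapped fragments, so levels of different genes can be compared per length. The table holds no read counts. Steps between low values placed 89 libraries at about 8.74M to 16.7M reads, those of kidney at 13.1M to 13.9M, and estrus replicate 3 of brown adipose tissue at about 0.0727M, with 12048 genes listed at 0. The study's methods report more reads per sample than these approximations, and the gap was not examined. Each tissue is bulk RNA, in which fewer cells of a type and less RNA per cell cannot be told apart. The study dissected all 15 tissues from 3 mice per phase, so libraries of different tissues share animals, but the labels do not say which libraries came from one mouse. A fit of all 90 libraries therefore treats libraries of the same mouse as independent.

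Blood is filtered in the glomerulus, where nephrin, the product of Nphs1, forms the slit between the foot processes of podocytes. The proximal tubule then takes back most of the filtrate: megalin (Lrp2) is its large endocytic receptor for filtered proteins and vitamin carriers, Slc34a1 its sodium-phosphate cotransporter, and Kap, the kidney androgen-regulated protein, a mouse product of the proximal tubule whose RNA is known to respond to androgen and estrogen. The thick ascending limb secretes uromodulin (Umod) and carries the furosemide-sensitive cotransporter Slc12a1, and the distal convoluted tubule carries the thiazide-sensitive cotransporter Slc12a3. Renin (Ren1) is released by juxtaglomerular cells beside the glomerulus and starts the renin-angiotensin cascade that sets blood pressure and salt balance.

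All 8 genes had their lowest kidney library above the highest of the 84 libraries from other tissues. The same held for 3.53% of the 12424 genes tested in kidney, those averaging 1 FPKM or more there. In kidney the order of the mean levels over 6 libraries was Kap at 32907 ± 5471 FPKM (SD, n = 6), Slc34a1 at 2474 ± 388, Umod at 1635 ± 171, Slc12a1 at 359 ± 70.3, Slc12a3 at 263 ± 68.7, Lrp2 at 161 ± 20.8, Ren1 at 84.9 ± 25.9 and Nphs1 at 8.17 ± 2.25. Neighbours in that order overlapped between libraries for Slc12a1 and Slc12a3, for Slc12a3 and Lrp2 and, by less than 1 FPKM, for Lrp2 and Ren1, while the other neighbours did not overlap. Kap was the most abundant gene of the kidney and made up 6.43% of the summed FPKM. Umod varied least between kidney libraries, with a highest value 1.28 times the lowest, and Ren1 most, at 2.81 times.

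**Figure D1:**
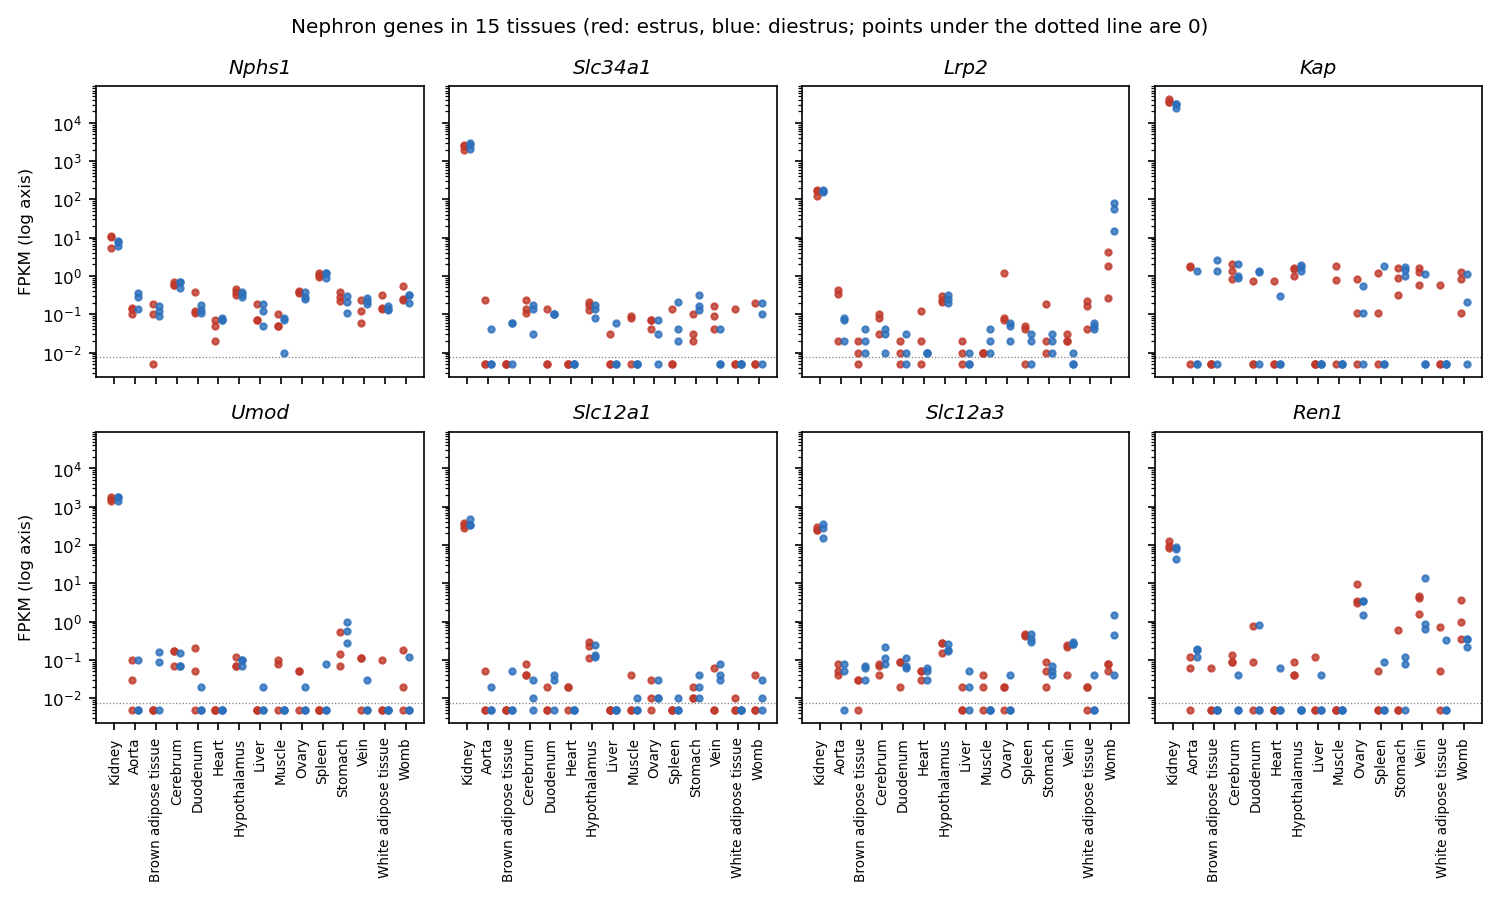
FPKM on a log axis of the 8 nephron genes in each of 90 libraries, by tissue, with estrus in red and diestrus in blue. Points under the dotted line are values of 0, drawn there because a log axis has no 0, and include the shallow library of brown adipose tissue. All 8 genes are highest in kidney, Lrp2 reaches 81.02 FPKM in uterus, and Ren1 reaches 13.74 FPKM in vein.

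The bases before the start sites of 4 members are shown because these are the genes the phase results turn on (Kap, Ren1 and Lrp2) and the one with the most matches to the motifs searched (Slc34a1). Each is the 250 bases upstream of the start from RefSeq on GRCm38.p6, 5′ to 3′ on the gene's strand, with matches in capitals. Each motif was searched on both strands, and no match overlapped another. TATAAA is the core of the TATA box, which places the start of transcription. GTTAAT is a half-site of HNF1, a factor of tubule cells. AGAACA is a half-site of the androgen and glucocorticoid receptors. AGGTCA is a half-site of the estrogen receptors and of other nuclear receptors. CCAAT is the box bound by the factor NF-Y. The stretches are Kap at chr6:133853668-133853917 (minus strand), Ren1 at chr1:133350424-133350673 (plus strand), Slc34a1 at chr13:55399398-55399647 (plus strand) and Lrp2 at chr2:69586030-69586279 (minus strand).
Kap: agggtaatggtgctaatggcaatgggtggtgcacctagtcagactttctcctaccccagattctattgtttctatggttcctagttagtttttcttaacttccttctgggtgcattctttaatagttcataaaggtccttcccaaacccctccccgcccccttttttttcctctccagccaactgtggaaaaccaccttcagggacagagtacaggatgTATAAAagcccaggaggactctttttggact
Ren1: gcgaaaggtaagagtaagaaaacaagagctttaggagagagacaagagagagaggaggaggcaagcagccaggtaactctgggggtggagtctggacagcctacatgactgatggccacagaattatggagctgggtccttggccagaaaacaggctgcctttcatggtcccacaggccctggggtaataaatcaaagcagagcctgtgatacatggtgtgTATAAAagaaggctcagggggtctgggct
Slc34a1: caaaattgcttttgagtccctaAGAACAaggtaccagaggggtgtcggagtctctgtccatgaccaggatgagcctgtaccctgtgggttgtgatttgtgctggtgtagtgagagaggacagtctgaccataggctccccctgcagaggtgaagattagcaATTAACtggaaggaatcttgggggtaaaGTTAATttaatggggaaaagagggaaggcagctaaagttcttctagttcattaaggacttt
Lrp2: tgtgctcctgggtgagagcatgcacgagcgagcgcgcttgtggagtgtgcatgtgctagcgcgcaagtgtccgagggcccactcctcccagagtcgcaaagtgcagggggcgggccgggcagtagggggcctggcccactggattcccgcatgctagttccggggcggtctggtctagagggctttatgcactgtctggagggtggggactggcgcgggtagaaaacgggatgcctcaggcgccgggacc

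TATAAA was found in Kap, Ren1 and Slc12a3, in each case between 24 and 32 bases before the start. It was present in 12.4% of the 32851 stretches of this length in the table. Slc34a1 held GTTAAT once on each strand and Umod held it once, against 6.43% of all stretches. AGAACA was found in Slc34a1 only, against 16.1% of all, AGGTCA in none of the 8, against 14% of all, and CCAAT in Umod, Slc12a1 and Slc12a3, against 33.8%. The stretch of Lrp2 held none of these letters and 18 CpG dinucleotides, where the median over all stretches was 6 and Kap and Ren1 held 1 each. A match describes letters and is no binding site, and no match says nothing of a factor.

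Estrus was compared with diestrus in kidney to ask whether the segments of the nephron change their RNA over the cycle. No member was called in kidney with limma (an adjusted p no larger than 0.05 together with a change of 1 or more on the log2 scale), and the background was the same, with 0.0% of 12424 genes called and 357 genes (2.87%) at an unadjusted p under 0.05. Kap was the one member whose phases did not overlap, with estrus higher, which 4.25% of the genes tested showed. Differences are given as estrus minus diestrus of log2(FPKM + 1), where the added 1 shrinks the differences of weakly expressed genes. With 3 libraries against 3, an exact permutation test of one gene cannot go below a p of 0.1.

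**Figure D2:**
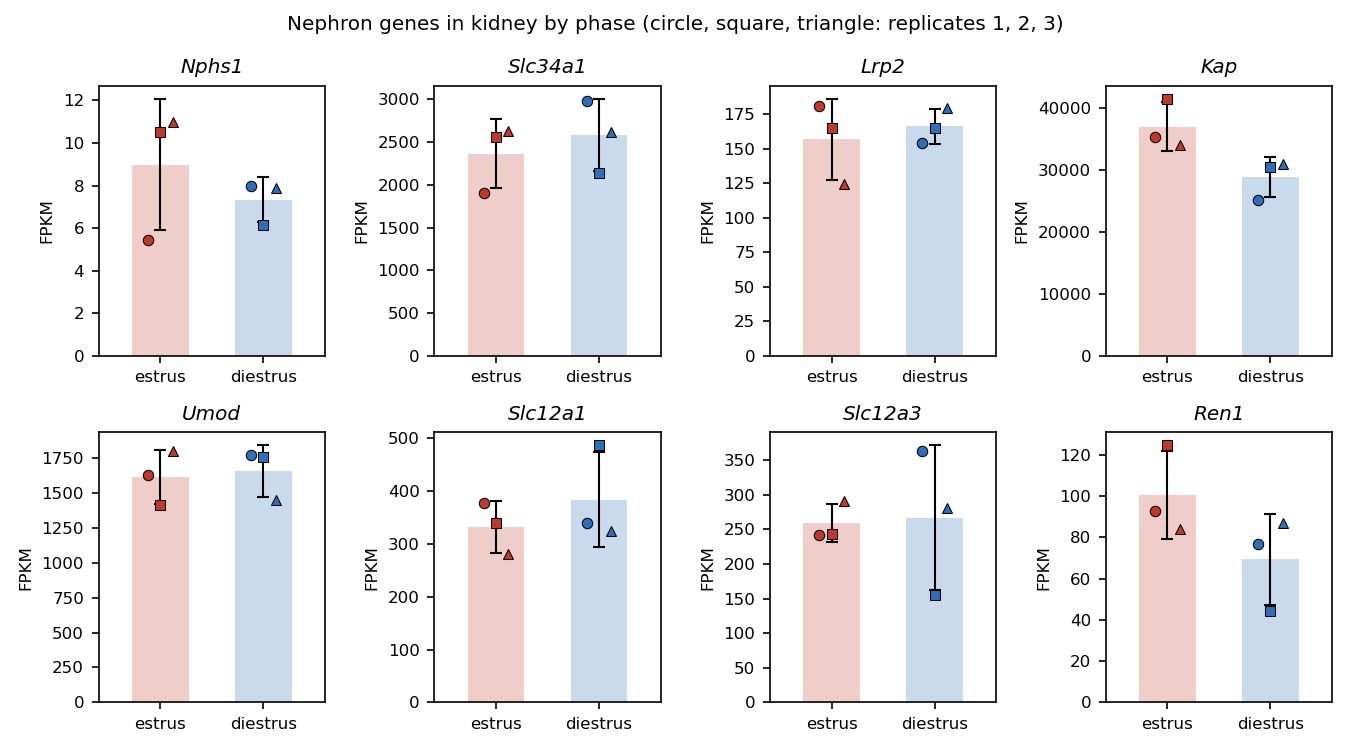
FPKM of the 8 nephron genes in the 6 kidney libraries, in estrus (red) and diestrus (blue). Bars are means of 3 libraries from 0, whiskers the SD, and symbols the single libraries. Kap lies between 34080.27 and 41457.33 FPKM in estrus and between 25187.2 and 30904.09 in diestrus, while the phases of the other 7 genes overlap.

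In the glomerulus, Nphs1 stood at 5.43, 10.53 and 11 FPKM in the estrus libraries against 8.0, 6.14 and 7.9 FPKM in the diestrus libraries. The lowest and the 2 highest libraries were all in estrus, so the phases overlapped. The difference was 0.21 on the log2 scale (SE 0.24), with a limma adjusted p of 1.0. Without estrus replicate 1 it was 0.5, still with an adjusted p of 0.756. Of the 10 podocyte genes tested, 7 were above and 3 below 0 in log2 fold change and none was called. Their median was 0.14, beside a median of -0.01 over all genes. Of all 12424 genes tested in kidney, 5962 were above and 6462 below 0. Among the most abundant were Podxl, the sialomucin of the podocyte surface, with a mean of 49.9 FPKM, and Cd2ap, an adaptor of the slit, with 29.0.

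In the proximal tubule, Slc34a1 stood at 1904.33, 2563.8 and 2629.89 FPKM in the estrus libraries against 2984.6, 2139.21 and 2620.78 FPKM in the diestrus libraries. The phases overlapped over most of their range, and the difference was -0.13 (SE 0.18, limma adjusted p = 1.0). Lrp2 stood at 180.7, 165.19 and 124.1 FPKM in the estrus libraries against 153.86, 164.77 and 179.22 FPKM in the diestrus libraries. Its highest and its lowest library were both in estrus, and the difference was -0.10 (SE 0.15, limma adjusted p = 1.0).

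Kap stood at 35311.24, 41457.33 and 34080.27 FPKM in the estrus libraries against 25187.2, 30504.31 and 30904.09 FPKM in the diestrus libraries. Every estrus library was above every diestrus library. The means were 36949.6 ± 3952 and 28865.2 ± 3192 FPKM (SD, n = 3 each), a difference of 0.36 on the log2 scale (SE 0.22) with a limma p of 0.14 and an adjusted p of 1.0. Leaving out single kidney libraries moved it between 0.26 and 0.41. Kap was thus higher in estrus by 1.28 times in these libraries, a difference that did not pass the test.

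The partners of these genes gave no call either. Of 6 other genes of protein uptake, 2 were above and 4 below 0, with a median of -0.04. Dab2, the adaptor that links megalin to clathrin, had the highest mean at 185 FPKM, followed by Lrpap1, the chaperone of megalin, at 166 and the antibody receptor Fcgrt at 106. Clcn5, the endosomal chloride transporter, was lower in every estrus library but by less than 0.5 on the log2 scale. Of 11 genes of phosphate handling, 3 were above and 8 below 0, with a median of -0.05. Pdzk1, a scaffold of Slc34a1, was at 516 FPKM, Pth1r, the parathyroid hormone receptor, at 233 and Kl, the co-receptor of the phosphate hormone FGF23, at 162. Slc34a3, the second renal sodium-phosphate cotransporter, stood at 18.27, 29.32 and 21.66 FPKM in the estrus libraries against 33.86, 30.25 and 36.7 FPKM in the diestrus libraries. Its phases did not overlap, which 3.73% of genes showed with estrus lower, and its difference of -0.54 (SE 0.17) had a limma adjusted p of 1.0. The 11 other transporters of the proximal tubule split into 5 above and 6 below 0, led by the organic anion transporter Slc22a8 at 334 FPKM, the dicarboxylate transporter Slc13a3 at 319 and the water channel Aqp1 at 294. With limma, 4 of the 11 had an unadjusted p under 0.05, against 2.87% of all genes, and none was called. Only Slc4a4 had no overlap, at 91.2 to 109.71 FPKM in estrus and 121.48 to 149.39 FPKM in diestrus.

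Since Kap is known to respond to sex hormones, a list of steroid receptors and of androgen-responsive kidney genes was set beside it. Of its 9 genes tested, 3 were above and 6 below 0, with a median of -0.12. Odc1, the polyamine enzyme that androgen is known to raise in mouse kidney, stood at 142.75, 137.09 and 123.23 FPKM in the estrus libraries against 165.88, 163.98 and 151.68 FPKM in the diestrus libraries. Its phases did not overlap and it was lower in estrus (-0.26, SE 0.09, limma adjusted p = 1.0), the opposite side to Kap. Cyp4b1, a cytochrome P450, differed by 0.26 (SE 0.46), and Prlr, the prolactin receptor, by 0.11 (SE 0.3). A response of these genes or of Kap to hormones was not tested.

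In the thick ascending limb, Umod stood at 1629.77, 1410.11 and 1798.15 FPKM in the estrus libraries against 1770.12, 1754.66 and 1445.53 FPKM in the diestrus libraries. The phases shared nearly the whole range, and the difference of -0.04 (SE 0.14, limma adjusted p = 1.0) had an interval of 2 SE from -0.33 to 0.25. Slc12a1 stood at 378.25, 340.53 and 280.55 FPKM in the estrus libraries against 340.64, 486.99 and 325.34 FPKM in the diestrus libraries. One library, diestrus replicate 2, stood above the other 5. The difference was -0.19 (SE 0.18, limma adjusted p = 1.0) and -0.01 without that library. Of 11 other genes of this segment, 5 were above and 6 below 0, with a median of -0.03. They were led by Egf, the precursor of epidermal growth factor, at 479 FPKM, the claudin Cldn10 at 166 and the potassium channel Kcnj1 at 127.

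In the distal convoluted tubule, Slc12a3 stood at 242.15, 243.75 and 291.64 FPKM in the estrus libraries against 363.74, 155.77 and 280.5 FPKM in the diestrus libraries. The highest and the lowest library were both in diestrus, so the phases overlapped fully. The difference was 0.04 (SE 0.28, limma adjusted p = 1.0), and without diestrus replicate 2 it was -0.31. The 10 other genes of this segment and the connecting tubule had 4 above and 6 below 0. Fxyd2, a regulator of the sodium pump, was listed at a mean of 4090.9 FPKM, the kallikrein Klk1 at 4015 and the potassium channel Kcnj16 at 225. Of the WNK kinase pathway, which switches Slc12a3 and Slc12a1 by phosphorylation, 1 of 10 genes was above and 9 were below 0. Over all 12424 genes, 6462 were below 0. The median of the pathway was -0.17, and none of its genes was called or had phases that did not overlap. Sgk1, the aldosterone-induced kinase, was at 109 FPKM, Wnk4 at 99.9 and Wnk1 at 66.9. The 12 genes of the collecting duct, led by the vasopressin-regulated water channel Aqp2 at 228 FPKM, Hsd11b2, the enzyme that inactivates glucocorticoid, at 127 and the sodium channel subunit Scnn1a at 112, had 7 above and 5 below 0.

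Ren1 in kidney stood at 92.76, 124.6 and 84.29 FPKM in the estrus libraries against 76.74, 44.29 and 86.87 FPKM in the diestrus libraries. The phases overlapped by less than 3 FPKM, and the lowest library by far was in diestrus. The means were 101 ± 21.3 and 69.3 ± 22.2 FPKM (SD, n = 3 each), a difference of 0.57 (SE 0.25) with a limma p of 0.057 and an adjusted p of 1.0. It was 0.28 without diestrus replicate 2, the lowest library.

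The level of Ren1 is uncertain because the table also lists Ren2, a nearly identical second renin gene that some mouse strains carry and that C57BL/6 is known to lack, and the authors' counting could divide reads between both. Ren2 stood at 0.04, 0.65 and 28.03 FPKM in the estrus libraries against 0.07, 0.15 and 0.36 FPKM in the diestrus libraries. It made up 25% of the renin total in estrus replicate 3 and at most 0.519% in the other kidney libraries. The sum of both genes was 92.8, 125.25 and 112.32 FPKM in the estrus libraries against 76.81, 44.44 and 87.23 FPKM in the diestrus libraries. On this sum, which was formed after the values were seen, the phases no longer overlapped. The difference was 0.70 (SE 0.24) with a limma p of 0.0199 and an adjusted p of 1.0, and 0.41 (SE 0.15) without diestrus replicate 2. Outside the kidney, Ren2 was above 0 in 10 of 84 libraries and reached 0.32 FPKM.

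Other parts of the renin system gave no call. Of its 8 genes tested beside renin, 2 were above and 6 below 0, with a median of -0.11. Ace, which converts angiotensin I, was at 72.8 FPKM, Mme, the peptidase neprilysin, at 59.5 and Agt, the renin substrate, at 50.9. Agt had a difference of 0.31 (SE 0.12) at a limma p of 0.0301 and an adjusted p of 1.0. Of 8 genes that mark juxtaglomerular cells and their neighbours, 5 were above and 3 below 0. They were led by Rgs5, a pericyte regulator of G proteins, at 18.2 FPKM, the natriuretic peptide receptor Npr1 at 11.1 and Hopx at 5.08. Akr1b7, an aldo-keto reductase known from renin cells, stood at 3.39, 2.74 and 2.48 FPKM in the estrus libraries against 1.74, 0.95 and 2.19 FPKM in the diestrus libraries. Its phases did not overlap, and the difference was 0.58 (SE 0.2, limma adjusted p = 1.0).

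Over all 22 lists, 172 genes were tested in kidney and none was called. With limma, 15 (8.72%) had an unadjusted p under 0.05, against 2.87% of all genes. Of the 15, 6 were clock genes and 4 were of the proximal tubule transport list. The phases of 10 (5.81%) did not overlap, where 7.98% of all genes tested did not. Of the lists, those with medians farthest from 0 were 4 adipocyte genes at -1.12, 6 red cell genes at -0.72 and 14 clock genes at -0.57. Of the clock genes, 3 were above and 11 below 0, and their summed level was 197.7 to 332.9 FPKM in estrus and 389.0 to 505.6 FPKM in diestrus. Tef and Nr1d1, which with Dbp were the most abundant, differed by -0.64 (SE 0.24) and -1.12 (SE 0.79), with overlap. Ciart differed by -2.19 (SE 0.4), Dbp by -1.95 (SE 0.52), Per3 by -0.88 (SE 0.27) and Nr1d2 by -0.84 (SE 0.22), all without overlap of the phases and with a limma adjusted p of 1.0. The red cell genes, mostly of haemoglobin, summed to 117 to 1460.5 FPKM in estrus and 118 to 1660.4 FPKM in diestrus, and 6 adipocyte genes, of which 4 were tested, to 76.7 to 92.1 FPKM in estrus and 83.2 to 198 FPKM in diestrus. Their part in the Kap and Ren1 values was not tested.

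The kidney libraries differed in the levels of segment lists. In diestrus replicate 2, 6 of 7 genes of the inner medulla and 4 of 4 genes of urothelium were at their highest of the 6 libraries, with a median deviation from the kidney mean of 0.84 and 1.7 on the log2 scale. Over all 12424 genes tested, 3270 were at their highest and 1197 at their lowest in that library. In the same library, 8 of 10 genes of the distal convoluted and connecting tubule were at their lowest, with a median of -0.62. The collecting duct list was split there, with 7 of 12 genes at their lowest and 3 at their highest, among them Aqp2 at 420.22 FPKM. Of 11 genes of the thick ascending limb, 6 were at their highest and 1 at its lowest. Diestrus replicate 1 held the highest value for 8 of the 10 distal genes, with a median of 0.41, and for 946 of all 12424 genes. The most abundant genes of the inner medulla list were the small heat shock protein gene Cryab at a mean of 275.9 FPKM, Akr1b3 at 86.7 and Fxyd4 at 57.4. Akr1b3, the aldose reductase of the medulla, was at 273.35 FPKM in diestrus replicate 2, at 138.23 in estrus replicate 1 and between 22.83 and 35.43 FPKM in the other 4. Slc12a1 was highest and Slc12a3 and Ren1 lowest in diestrus replicate 2. The ratio of Slc12a1 to Slc12a3 was 3.13 there and 0.936 to 1.56 in the other 5 libraries. Whether the piece of kidney taken differed was not tested. Without this library, 0 genes were called in kidney and 492 had an unadjusted p under 0.05.

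**Figure D3:**
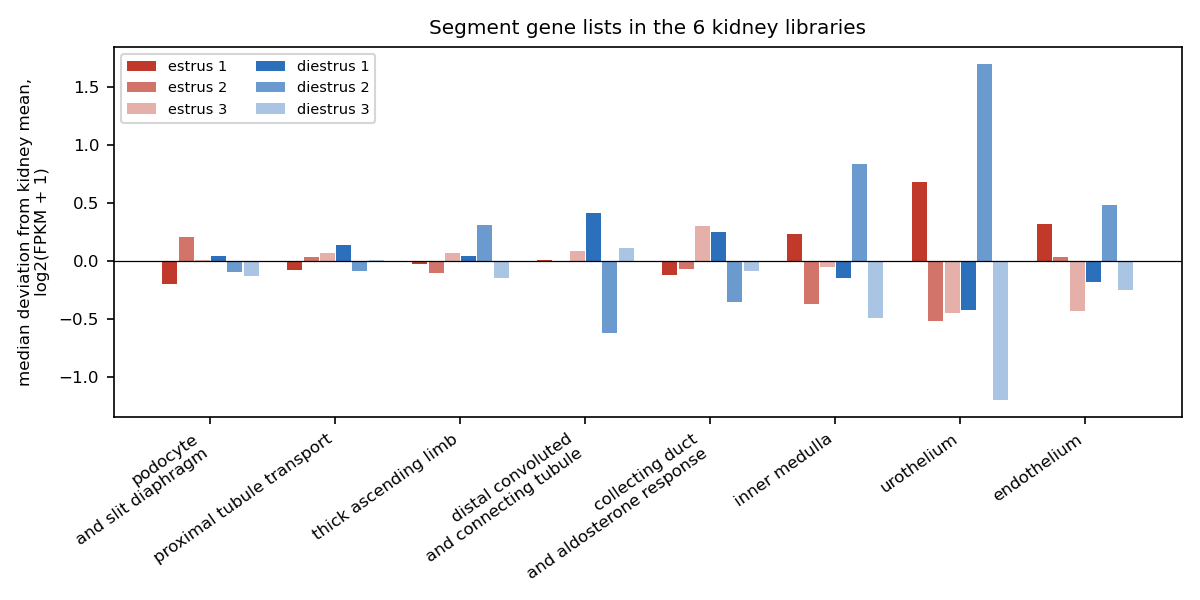
Median deviation of the genes of each list from their mean over the 6 kidney libraries, in log2(FPKM + 1), with one bar per library, estrus in red and diestrus in blue. In diestrus replicate 2 the inner medulla list lies at 0.84 and the distal list at -0.62, both far from the other libraries.

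Across 6 kidney libraries, log2 levels of Slc12a1 and Slc12a3 had a Pearson r of -0.81, and those of Slc12a3 and Slc34a1 of 0.71. With 6 libraries whose segment lists differed as above, these describe the libraries only. The 3 genes most like Slc12a3 in kidney were Trpv5 (0.982), Slc26a4 (0.980) and Cpq (0.980). Trpv5 is the calcium channel and Slc26a4 a chloride-bicarbonate exchanger of the distal nephron. For Nphs1 they were Acbd4 (0.990), Sema3g (0.989) and Mrps18a (0.975), for Kap Efcab12 (0.991), Homer3 (0.980) and Lactb (0.967), and for Ren1 Diablo (0.981), Atp5j (0.974) and Ndufb3 (0.970). For Umod they included B3gnt8 and Impdh1 (0.983 each), and they were for Slc12a1 Cic, Dbf4 and Foxo4 (0.996 to 0.998), for Slc34a1 Dmac2, Myo19 and Acad8 (0.979 to 0.992), and for Lrp2 Ube2w, Rap1gds1 and Eif2ak2 (0.994 to 0.999).

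Likeness to a member was searched only among genes averaging 1 FPKM or more in kidney. Over all 90 libraries, which fall into kidney and the rest, the genes most alike were other kidney genes, which this search favours. Those of Slc12a1 were Serpina1f, Hsd3b4 and Bsnd, all at 0.999, of which Bsnd is the chloride channel subunit barttin. Slc34a1 was most like Pfn3 (0.999), whose gene overlaps Slc34a1 in the annotation. In a kit that does not mark strand, reads of shared exons cannot be told apart. Only whole gene spans were compared, so whether this touches the pair was not tested. Gm10681 and Gm4450 followed for Slc34a1 and led for Umod, before Slc22a19, at 0.998 to 0.999. Slc12a3 was most like Tmem52b, Abca13 and Atp6v1g3 (0.995 to 0.996), and Kap like the urate transporter Slc22a12 (0.989), Cltrn and Pfn3 (0.988 each). The values were lower for Nphs1, with Avpr2, Slc6a18 and Klk1b9 at 0.955 to 0.966, for Lrp2, with Cldn8, Mettl7a3 and Wfdc15b at 0.925 to 0.946, and for Ren1, with Miox, Tmem72 and Col4a3 at 0.920 to 0.927.

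Outside the kidney, Lrp2 in uterus held the widest difference between the phases among the members. It stood at 0.26, 4.13 and 1.81 FPKM in the estrus libraries against 14.7, 54.57 and 81.02 FPKM in the diestrus libraries. The highest estrus library stood below the lowest diestrus library by more than 10 FPKM. The means were 2.07 ± 1.95 and 50.1 ± 33.4 FPKM (SD, n = 3 each), so the mean in diestrus was 24.2 times higher. This ratio of means rested in part on single libraries: it rose to 48.4 when estrus replicate 2 was left out and lay between 16.8 and 32.8 when any other library was. On the log scale the fold was 15.8. On the log2 scale the difference was -3.98 (SE 0.73) with a limma p of 0.000958, the 6th smallest of 13706 genes, and an adjusted p of 0.897, so it was not called, and neither was any other gene of uterus (0.0%, with 512 genes at an unadjusted p under 0.05). Phases that did not overlap with estrus lower by at least 1 were shown by 1.23% of the genes of uterus. In one fit of all 90 libraries, which shares one estimate of the spread over tissues and leaves aside that tissues share mice, the same difference had an adjusted p of 4.57e-19, beside 6.66% of uterus genes called.

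Kidney and uterus differed in the phase effect of Lrp2. The effect in kidney minus that in uterus was 3.88 (SE 0.37), with a limma adjusted p of 8.77e-12 in the fit of all libraries, where 1.07% of 11719 genes were called. That fit takes the spread of all tissues, in which uterus varied more than kidney: its own fit gave an SE of 0.73, against 0.15 in kidney.

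Cubn and Amn, which form the cubilin receptor that works with megalin in the proximal tubule, were near 0 in uterus, with at most 0.19 and 0.33 FPKM. Lrpap1 stood at 25.38, 31.04 and 63.58 FPKM in the estrus libraries against 44.32, 89.18 and 81.34 FPKM in the diestrus libraries, with overlap. Clcn5 stood at 2.05, 10.15 and 1.69 FPKM in the estrus libraries against 14.35, 17.42 and 12.7 FPKM in the diestrus libraries, without overlap, and differed by -1.80 (SE 0.54, limma adjusted p = 0.897). Dab2 overlapped between the phases, at 7.32 to 18.22 FPKM in estrus and 15.89 to 36.71 FPKM in diestrus. Mme stood at 6.89, 20.04 and 14.97 FPKM in the estrus libraries against 36.57, 160.49 and 207.28 FPKM in the diestrus libraries, and differed by -2.97 (SE 0.69, limma adjusted p = 0.897). Pth1r and Hsd11b2 were also lower in every estrus library of uterus than in any diestrus library, so these genes are examples. Cebpb, a transcription factor gene of the steroid list, went the other way without overlap, at 40.56 to 54.05 FPKM in estrus and 20.77 to 33.5 FPKM in diestrus (0.73, SE 0.27, limma adjusted p = 0.897).

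Markers of other cells differed between the uterus libraries. Estrus replicate 3 held Ovgp1, the oviduct glycoprotein, at 2554.37 FPKM and Foxj1, a factor of ciliated cells, at 155.4 FPKM, where the other 5 held at most 126.1 and 4.62 FPKM. Without that library Lrp2 differed by -4.03 (limma adjusted p = 1.0). Estrus replicate 2 held Pgr, the progesterone receptor gene, at 68.77 FPKM, against 11.58 and 10.25 in the other estrus libraries and 32.71 to 98.67 in diestrus. Lcn2 was at 176.59 FPKM there, against 3989.27 and 1245.37 in the other estrus libraries and 10.16 to 194.7 in diestrus. Mme and Cebpb stayed on the estrus side in it, as genes whose phases do not overlap must. They were picked after these values were seen, so their place says nothing further about this library. Without estrus replicate 2, limma gave 2132 uterus genes an unadjusted p under 0.05 and called 2. Smooth muscle genes summed to 1112 to 5579 FPKM in estrus and 1263 to 3458 FPKM in diestrus. Of 6 genes of simple epithelium, chosen after the values were seen, 5 overlapped between the phases, with Epcam at 127.97 to 197.45 FPKM in estrus and 83.07 to 157.95 FPKM in diestrus, and Cldn3 was lower in every estrus library. Their part in the Lrp2 values was not tested.

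**Figure D4:**
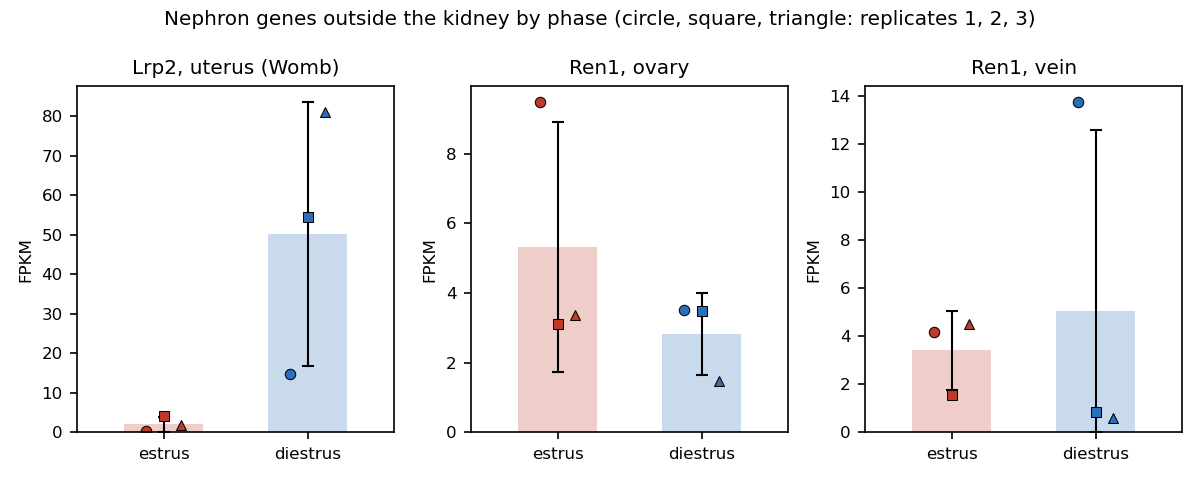
FPKM of Lrp2 in uterus and of Ren1 in ovary and vein, in estrus (red) and diestrus (blue). Bars are means of 3 libraries from 0, whiskers the SD (cut at 0) and symbols the single libraries. Lrp2 is at most 4.13 FPKM in estrus and at least 14.7 in diestrus, and 1 library stands above the others for Ren1 in ovary and in vein.

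Ren1 was next highest in vein and ovary, at means of 4.25 ± 4.94 and 4.08 ± 2.75 FPKM (SD, n = 6), and these tissues overlapped. In ovary it stood at 9.47, 3.12 and 3.37 FPKM in the estrus libraries against 3.52, 3.49 and 1.48 FPKM in the diestrus libraries. Estrus replicate 1 stood above the other 5, and the difference of 0.64 (SE 0.41, limma adjusted p = 0.846; 0.0% of genes of ovary were called) was 0.20 without it. In that library Cyp17a1, the androgen-forming enzyme of theca cells, was at 2.39 FPKM against 82.75 to 230.78 in the others, and the adrenal enzyme Cyp11b1 at 5.36 against 0.1 to 1.51. In vein Ren1 stood at 4.2, 1.54 and 4.52 FPKM in the estrus libraries against 13.74, 0.85 and 0.62 FPKM in the diestrus libraries. Diestrus replicate 1 alone was above 5 FPKM, and the difference of 0.24 (SE 0.83, limma adjusted p = 0.901; 0.0% called) was 1.27 without it and -0.32 without diestrus replicate 3. Of the adrenal list, vein libraries also held Th at 173.38 to 401.72 FPKM and Dbh at 336.52 to 744.91 FPKM. Pnmt of that list was at most 0.39 FPKM, and Cyp11b1 and Nr5a1 of the adrenal cortex at most 0.63 and 0.07 FPKM. Which cells gave the Ren1 values of vein was not tested. In uterus Ren1 was highest in estrus replicate 3, at 3.64 FPKM, against 0.22 to 0.95 FPKM in the other 5.

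Nphs1 was next highest in spleen, at 1.04, 0.96 and 1.2 FPKM in the estrus libraries against 1.21, 0.89 and 1.21 FPKM in the diestrus libraries. The phases overlapped fully and the difference was -0.02 (SE 0.12, limma adjusted p = 0.986; 0.00798% of genes of spleen were called). Cerebrum followed at 0.49 to 0.7 FPKM in all 6 libraries, below every library of spleen. Slc12a3 was listed at 0.3 to 0.47 FPKM in spleen and reached 1.46 FPKM in uterus diestrus replicate 3, where the other 5 uterus libraries held 0.04 to 0.44 FPKM. Slc12a1 was next highest in hypothalamus, at 0.11 to 0.29 FPKM, above every library of vein, its next tissue. Umod was next highest in stomach, at 0.14, 0.54 and 0.07 FPKM in the estrus libraries against 0.27, 0.55 and 0.95 FPKM in the diestrus libraries, with overlap.

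Kap was found at low levels in many tissues. Its means were 1.52 ± 0.329 FPKM in hypothalamus, 1.35 ± 0.568 in cerebrum and 1.16 ± 0.525 in stomach (SD, n = 6), all overlapping. In hypothalamus it was listed at 0.98, 1.49 and 1.63 FPKM in the estrus libraries against 1.38, 1.72 and 1.94 FPKM in the diestrus libraries. The differences between the phases were -0.18 (SE 0.14, adjusted p = 0.592), 0.07 (SE 0.25, adjusted p = 1.0) and -0.34 (SE 0.29, adjusted p = 0.707) with limma, and 0.0% of genes were called in each of the 3 tissues. The phase effect of Kap in kidney minus that in these tissues was 0.28 to 0.69, with an SE of 0.55 and a limma adjusted p of at least 0.999. In these differences 0.0% of genes were called against hypothalamus and cerebrum and 0.00887% against stomach. For Ren1, kidney minus ovary was -0.07 and kidney minus vein 0.33 (SE 0.52 each, limma adjusted p = 1.0), with 0.0% and 0.00869% of genes called. For Nphs1, kidney minus spleen was 0.24 (SE 0.16, limma adjusted p = 1.0), with 0.0% called.

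The low values of Kap went with those of Slc34a1 and Umod. Outside the kidney and without the shallow library, 47 of 83 libraries had Kap above 0, and there the medians of Kap, Slc34a1 and Umod were 36.8, 40.4 and 42.8 ppm of their kidney means. All 3 genes were at 0 in 28 libraries and above 0 in 34. Of the 36 libraries with Kap at 0, 32 had Umod at 0 and 29 had Slc34a1 at 0. Across the 83 libraries, Spearman's rho was 0.73 between Kap and Slc34a1 and 0.745 between Kap and Umod, with Pearson's r of 0.648 and 0.452. The points share tissue, depth and sequencing, so these are descriptions, and carry-over between libraries was not tested. Stomach stood apart for Umod, which reached 581 ppm there while Kap and Slc34a1 stayed below 130.

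**Figure D5:**
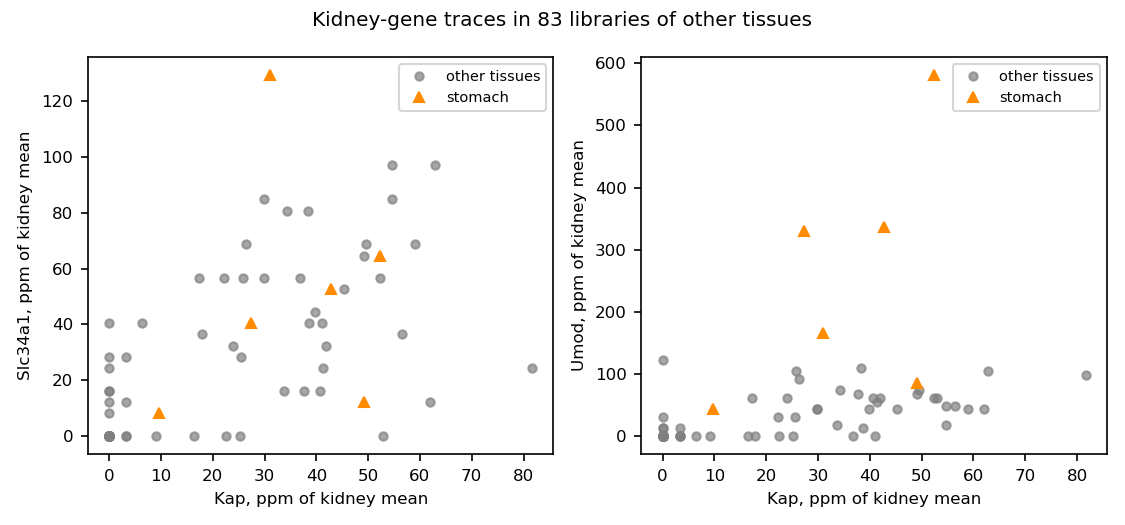
Levels of Slc34a1 and Umod against that of Kap in 83 libraries of the other 14 tissues, each in ppm of the gene's kidney mean, with stomach as orange triangles. Most libraries lie below 130 ppm on both axes, and stomach reaches 581 ppm for Umod.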

How the data were processed

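RNA of 15 tissues of female mice in estrus and diestrus was sequenced on a BGISEQ-500 from a TruSeq kit. The authors filtered reads with SOAPnuke, aligned them with Bowtie2 2.2.5 to GRCm38.p5, per the submitters' processing notes, estimated abundance with RSEM 1.2.8 and deposited FPKM for 20414 genes without counts. Groups follow the sample labels. Genes averaging 1 FPKM or more in a tissue were compared as log2(FPKM + 1) with limma 3.58.1 in R 4.3.3, with a trend and Benjamini-Hochberg adjustment within each tissue. Differences between tissues came from one fit of 90 libraries. The procedure was tested on simulated data. Symbols and upstream sequences are from RefSeq on GRCm38.p6, so other coordinates are not given. Reads per library were approximated from the low values of 852 short genes. Python 3.11.15, numpy 2.4.6, pandas 2.3.3, scipy 1.17.1 and matplotlib 3.10.9 did the rest. The members and the 22 lists (203 entries, 1 without a match) were chosen with earlier results of these data known. Named were the members, the 3 most abundant genes of each kidney list and of the clock list, list genes without overlap of the phases and a difference of at least 0.5, and the 3 genes most like each member; 2 of these genes are not reported here. Clcn5, Slc4a4, Ren2, Cebpb, the uterus values of Mme, Pth1r and Hsd11b2, and the marker genes of uterus, ovary and vein were chosen after their values were seen. Lists of other cells are given as sums or counts only, and those of adrenal, adipocyte, leukocyte, smooth muscle, endothelial, heat shock and injury genes gave 0 calls in kidney. Libraries were not paired by replicate number.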

Additional observations from a re-analysis of the deposited data

Results flagged for a closer look

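The phase effect of Lrp2 differed between kidney and uterus by 3.88 on the log2 scale (SE 0.37, limma adjusted p = 8.77e-12 in one fit of all libraries), with -0.10 in kidney and -3.98 in uterus. That fit treats libraries of the same mouse as independent and takes one spread for all tissues, while uterus alone had an SE of 0.73 and a limma adjusted p of 0.897, so the difference there was not called. Lrp2 was lower in 3 of 3 estrus libraries of uterus than in any of its diestrus libraries, while the phases overlapped in kidney. With 3 libraries a group, no outlier test was made within groups.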

How the results depend on the processing

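No member was called in kidney under any alternative run (another pseudocount of 0.1 FPKM, no filter on low values, median-ratio scaling, one fit of all libraries, the replicate block, single libraries left out, and the sum of Ren1 and Ren2), and no list gene was. One fit of all 90 libraries called 3 genes in kidney where the fit within the tissue called 0: Ren2, which was at 28.03 FPKM in estrus replicate 3 and at most 0.65 FPKM in the other 5, Ly6f, higher in estrus, and Nat8f6, lower. It also called 1 member outside the kidney, Lrp2 in uterus, where the adjusted p fell from 0.897 to 4.57e-19 with the difference at -3.98 in both, since it shares one spread over all tissues. With Spearman's correlation, 1 of the 24 genes most like a member over 90 libraries stayed in the first 3, and the cause was not tested. All 8 members stayed highest in kidney by median and after scaling each library to the same sum. Leaving out single libraries called 0 members in kidney and 0 in other tissues.

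The replicate numbers did not pair the libraries: same-numbered kidney libraries correlated at -0.15, 0.01 and 0.12. With the replicate block, 0 members and 0 genes were called in kidney and 0 members elsewhere, and Lrp2 in uterus had a limma adjusted p of 0.537.

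Of 180 values of single genes under alternatives, 163 kept direction and side of the threshold, 1 passed it (Lrp2 in uterus) and 16 changed sign, all of them not called. Leaving out single libraries gave -0.14 to 0.05 for Umod, -0.31 to 0.3 for Slc12a3, -0.26 to 0.02 for Slc34a1 and -0.21 to 0.06 for Lrp2 in kidney, -0.12 to 0.29 for Kap in cerebrum, -0.1 to 0.01 for Nphs1 in spleen and -0.32 to 1.27 for Ren1 in vein. With a pseudocount of 0.1 FPKM, the phase effect of Ren1 in kidney minus that in vein was -0.02 in place of 0.33. Lrp2 in uterus ranged from -4.68 to -3.45.

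The sources used here give no counts, so precision is set by 3 libraries per group. Kidney phase differences of the members had standard errors of 0.14 to 0.28. A call also asked for a change of 1 or more on the log2 scale. Even a clock gene at -2.19 was not called in kidney, so changes well above these standard errors could be missed too. Values near 0 in the shallow library of brown adipose tissue say little.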
